A study of Mus musculus with 4 samples.

Results

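Transcripts of 30 listed genes of cholesterol and fatty acid synthesis were followed in F9 cells, a mouse embryonal carcinoma line, after knockdown of Phf19. The genes were chosen by name: 18 enzymes of the cholesterol pathway in order of reaction, 6 genes of its control and of sterol transport, and 6 genes of fatty acid synthesis. All probe sets that GEO's platform annotation lists with exactly 1 of these symbols were used, which gave 67 of 45037 probe sets and 29 of 18193 genes. Acat2, a thiolase that makes acetoacetyl-CoA, was not analysed here, and 9 genes had 1 probe set while 20 had several. No gene of the set passed the test between the groups, and the 95% interval of every representative probe set lay inside a 2-fold change in either direction.

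The shVector group (2 arrays) is F9 cells infected with pLKO.1 lentivirus as a vector control, and the shPhf19 group (2 arrays) is F9 cells infected with pLKO.1 carrying a short hairpin RNA against mouse Phf19, a Polycomb-like protein gene. Cells of both groups had been selected with puromycin as stable lines, so infection and selection are common to both. The labels call the arrays biological replicates. The sources used here do not give the number of hairpins, whether a line is a clone, whether replicates were infected separately, or the lipid content of the medium, so p-values measure only the spread between these arrays. Expression is given as the deposited value per probe set, taken as log2 from its range of 2.31 to 14.74.

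Cells build cholesterol from acetyl-CoA through mevalonate and isoprenoid phosphates to squalene, which is oxidised, closed into lanosterol and trimmed in many steps to cholesterol. Most of these enzymes are transcribed under SREBP-2 (gene Srebf2), and fatty acid synthesis more under SREBP-1 (Srebf1). Both factors are held in the endoplasmic reticulum with their escort Scap by the Insig proteins when sterols are plentiful, and are released to the nucleus when sterols are scarce. Because the targets share this switch, they are known to move together, and dividing cells such as embryonal carcinoma cells need the products for new membrane.

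The SREBP factors act at promoters together with NF-Y, which binds the CCAAT box, and Sp1, which binds GC boxes, so the promoters of the genes were read for these letters. RefSeq promoter windows (GRCm38.p6, 250 bases before to 50 bases after a start site) matched 24 of the 30 genes by symbol, Acat2 included, with 32 windows. Those not matched were Scd1, Scd2, Fdps, Sqle, Fdft1 and Stard4. Each motif was searched on both strands, and no printed match overlaps another. The CCAAT box (letters CCAAT) was in 21 of the 32 windows (65.6%), against 37.4% of all 32851 windows, and in 20 of the 24 genes (83.3%), against 42% of the 14453 genes of the array annotation with a window. The GC box (letters GGGCGG) was in 24 of the 32 windows (75%), against 35.7% of all windows, and also in 20 of the 24 genes, against 57.3%. The palindromic E-box CACGTG was in 6 windows (18.8%, against 7.15%). The SRE core TCACCCCAC was in 1 window (3.12%, against 0.551%), that of Hmgcs1. Only these exact letters were searched, so a window without a match may still hold a variant of the site. These are letter matches in windows and say nothing of binding in these cells.

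The 150 bases before the start site are shown for 3 enzymes of the late pathway whose arrays separated by group (Ebp, Cyp51 and Nsdhl) and for Hmgcs1, the gene with the SRE core and no lower signal by its representative probe set. Sequences run from 5′ to 3′ along the gene, and capitals mark every match to the CCAAT box, the GC box, the E-box or the SRE core on either strand.
Ebp, chrX:8193513-8193662, minus strand: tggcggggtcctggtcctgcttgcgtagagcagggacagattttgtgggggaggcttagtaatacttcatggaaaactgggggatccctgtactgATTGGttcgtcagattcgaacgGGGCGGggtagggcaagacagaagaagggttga
Cyp51, chr5:4104698-4104847, minus strand: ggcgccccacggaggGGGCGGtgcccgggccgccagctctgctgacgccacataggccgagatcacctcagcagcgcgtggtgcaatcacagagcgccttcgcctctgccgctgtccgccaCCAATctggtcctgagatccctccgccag
Nsdhl, chrX:72918371-72918520, plus strand: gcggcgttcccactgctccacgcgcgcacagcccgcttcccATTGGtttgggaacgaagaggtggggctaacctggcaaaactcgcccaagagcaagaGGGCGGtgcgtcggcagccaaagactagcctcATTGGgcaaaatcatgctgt
Hmgcs1, chr13:119690201-119690350, plus strand: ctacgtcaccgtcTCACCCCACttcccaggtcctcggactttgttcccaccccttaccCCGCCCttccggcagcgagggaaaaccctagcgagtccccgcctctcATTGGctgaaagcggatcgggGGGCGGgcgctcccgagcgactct

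All of these stretches hold a CCAAT box and a GC box. In Ebp the CCAAT box, on the reverse strand, starts at -55 and the GC box at -33 from the start site. In Cyp51 the CCAAT box starts at -29 and the GC box at -135. Nsdhl has reverse CCAAT boxes at -109 and -20 on both sides of a GC box at -52. Hmgcs1 has its SRE core at -137, a reverse GC box at -92, a reverse CCAAT box at -45 and a GC box at -24.

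The knockdown and the cell type were checked first. By its first probe set Phf19 fell in shPhf19, from 6.11 ± 0.05 (SD, n = 2) to 5.13 ± 0.07 (log2 change -0.98 ± 0.10 SE, limma adjusted p = 0.0108). The second did not pass (-0.06 ± 0.12, adjusted p = 0.928). It has the higher mean (6.21 in shVector and 6.16 in shPhf19), so the rule used below would take it to represent Phf19. The fall was thus seen only with the dimmer, first probe set, which was near the array median (5.75 to 5.76) in shVector. With each array left out in turn its change was -1.03 to -0.93; such fits, with 1 array in a group, called 0 of all 45037 probe sets, so their adjusted p-values (0.114 to 0.692 here) say nothing of stability. All 11 markers of undifferentiated embryonal carcinoma, such as Pou5f1 and Sox2, were above the array median on all 4 arrays, and none passed the test. Nanog was at -0.26 ± 0.05 (adjusted p = 0.0923) and Dppa4 at 0.25 ± 0.06 (adjusted p = 0.146), each with the groups apart. Also with the groups apart, Sall4 (0.17), Utf1 (0.15) and Fgf4 (0.19) were higher and Esrrb (-0.07) was lower. Of 13 endoderm markers 6 passed as higher (Gata6, Dab2, Lamb1, Col4a1, Col4a2 and Cubn) and none passed as lower. The markers did not all go 1 way. Sox7 (-0.24 ± 0.11), Sparc (-0.12 ± 0.06) and the dim Afp (-0.17 ± 0.13) were lower with the groups apart, without passing. Gata4, Sox17 and Foxa2 were higher with the groups apart, also without passing. The summed linear signal of the 13 markers was 4556 to 4588 in shVector and 5679 to 5725 in shPhf19. Gata4, Sox17, Foxa2 and Afp stayed under the array median (5.75 to 5.76) on all arrays. No fibroblast (8), liver (5) or adipocyte (5) marker was above it on every array, though some were on part of the arrays, and none passed. Their largest shifts, each with the groups apart, were in Adipoq (-0.79 ± 0.13, limma adjusted p = 0.0502), Pdgfrb (-0.68 ± 0.14, adjusted p = 0.0923) and Thy1 (0.46 ± 0.12, adjusted p = 0.169). Whether endoderm-like cells had a part in the values below was not tested, and in bulk RNA fewer cells of a type and less RNA per cell cannot be told apart.

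The pathway was expressed in both groups and shifted little. All 29 representative probe sets (for each gene the one with the highest mean) were above the array median on all 4 arrays. None of the 29 genes passed in either direction (limma, Benjamini-Hochberg adjusted p under 0.05 over all 45037 probe sets), against 1.15% of all genes called higher and 0.863% called lower. None of the 67 probe sets passed either, against 0.83% of all probe sets called higher and 0.582% called lower. At an unadjusted p under 0.05, 6 genes were lower (7.35% of all genes were) and none was higher. That count was not stable: it changed with each array left out, and the count over all probe sets moved the same way each time. With the replicate number as a block it was 1 in either direction, while 3890 of all 45037 probe sets were at that level, against 5708. How much of this is particular to these genes was not tested. The median change was -0.07, which is 95.2% of the control signal, and 24 of 29 changes were below 0, whereas the median over all genes was -0.00 with 51% below 0. Both shPhf19 arrays lay below both shVector arrays for 12 genes (22.2% of all genes) and above them for 4 (21.3% of all genes). Of the 72 further sterol and lipid genes read below, 34 lay below in the same way and 8 above, so this was not particular to the 29. The 95% intervals of the 29 representative probe sets ran from -0.50 to 0.31 at their extremes, and 28 lay within 0.5 on the log2 scale in both directions. Over all 67 probe sets the intervals ran from -0.91 to 0.45, and 59 lay within 0.5. Some dimmer probe sets thus bound their gene less closely. Probe set summaries can compress differences, so the bounds hold for array signal.

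**Figure D1:**
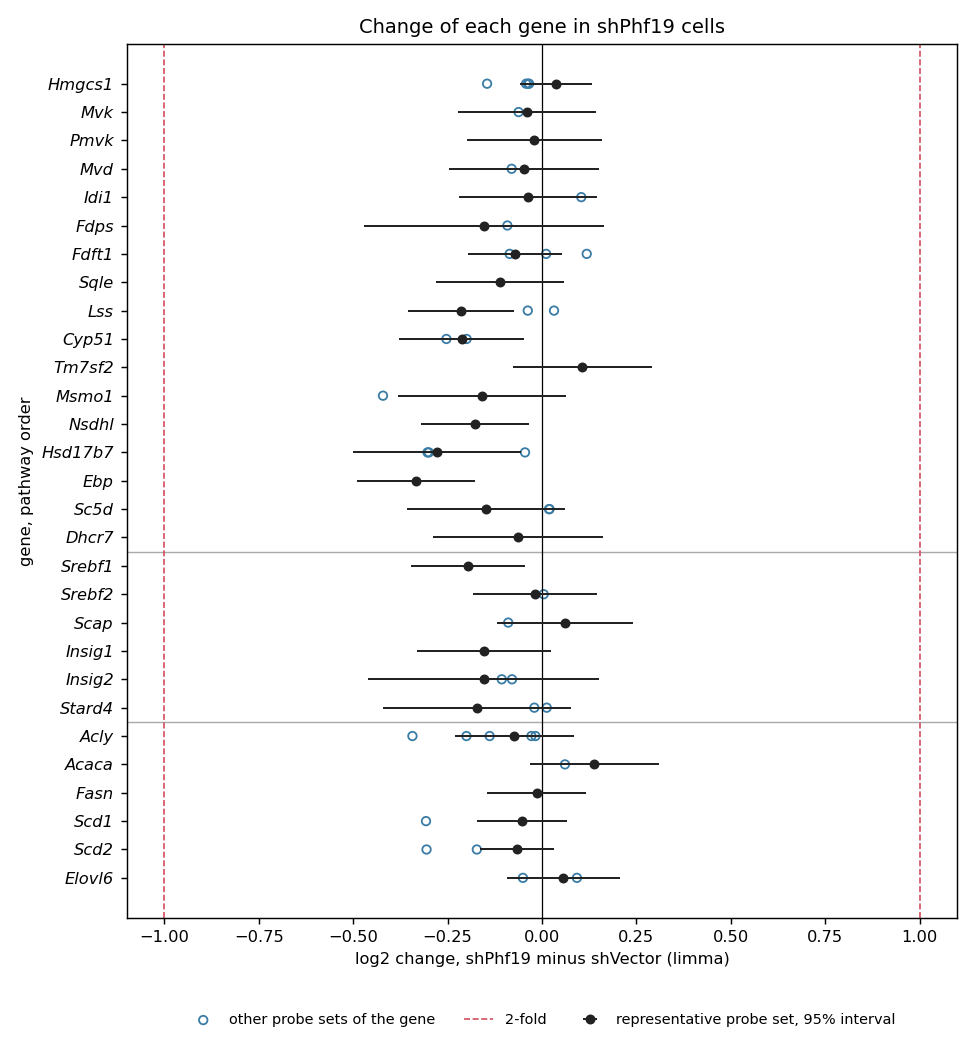
Change of the 29 genes in pathway order (x axis: log2 change, shPhf19 minus shVector), with black points and bars for the representative probe set and its 95% limma interval, open circles for a gene's other probe sets, and dashed lines at 2-fold. Every bar lies between the dashed lines; the bars of Lss, Cyp51, Nsdhl, Hsd17b7, Ebp and Srebf1 lie below 0.

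The 7 measured enzymes that lead to squalene stayed near their control level. Hmgcs1, HMG-CoA synthase, which condenses acetoacetyl-CoA with acetyl-CoA, read 13.55 and 13.53 in shVector and 13.55 and 13.59 in shPhf19 (change 0.04 ± 0.04 SE, adjusted p = 0.801). Its other 4 probe sets were between -0.15 and -0.03. Its SE was the lowest of the 29 genes, with an interval from -0.06 to 0.13. The kinases that phosphorylate mevalonate, Mvk and Pmvk, were at -0.04 ± 0.08 and -0.02 ± 0.07. Mvd, the decarboxylase that yields isopentenyl diphosphate, was at -0.05 ± 0.08, and the isomerase gene Idi1 at -0.04 ± 0.08.

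Fdps, which makes farnesyl diphosphate, had the widest spread of the representative probe sets. It read 11.13 and 11.56 in shVector and 11.23 and 11.15 in shPhf19 (change -0.15 ± 0.13, adjusted p = 0.738). The control arrays were further apart than the group means, and shVector replicate 2 alone was high. Fdft1, squalene synthase, was at -0.07 ± 0.05, with both shPhf19 arrays below both controls. Over the 7 genes 6 changes were below 0 and the median was -0.04. Leaving out shPhf19 replicate 1 turned that median to 0.01, and leaving out the other arrays in turn gave -0.09 to -0.02.

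None of the 10 enzymes after squalene passed either. Of these, 9 were below 0 (51% of all genes were), 6 had both shPhf19 arrays below both controls (22.2% of all genes did), and the median was -0.17 (89.0% of control). With each array left out in turn the median lay between -0.22 and -0.14. The division at squalene was made after the values were seen, and the difference between the early and late enzymes was not tested.

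Ebp, the sterol isomerase that moves the double bond in the B ring, had the largest change of the 29 genes. It read 11.34 and 11.47 in shVector and 11.06 and 11.08 in shPhf19. The control arrays differed by far less than the groups, and the groups did not overlap. The change was -0.33 ± 0.06 SE (95% interval -0.49 to -0.18), a 1.26-fold lower signal, with limma adjusted p = 0.0804. Ebp has 1 probe set, so averaging probe sets per gene leaves its values as they are. Only the fit and the adjustment over genes differ there. It passed after a further quantile normalization (adjusted p = 0.0469) and with probe sets averaged per gene (adjusted p = 0.041), and not under the other alternatives, of which the replicate block and the fits without 1 array called no probe set at all.

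Hsd17b7, the ketosteroid reductase of sterol demethylation, came next. Its representative probe set read 8.91 and 9.11 in shVector and 8.77 and 8.70 in shPhf19 (change -0.28 ± 0.09, adjusted p = 0.28). Here too the groups were apart, with a wider gap between the controls. Of its 3 other probe sets, 2 were at -0.30 with the groups apart (adjusted p = 0.299 and 0.317), and the dimmest was at -0.05 ± 0.09 with overlapping groups.

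Lss, lanosterol synthase, read 10.68 and 10.70 in shVector and 10.48 and 10.47 in shPhf19, with replicates almost identical. The change was -0.21 ± 0.06 (adjusted p = 0.184). This probe set can also hybridise to other transcripts, as its suffix says, and the gene's dimmer probe sets were at -0.04 ± 0.07 and 0.03 ± 0.09. The lower value of Lss was therefore seen with 1 of 3 probe sets. The limit given by the suffix is not particular to Lss. It also applies to the representative probe sets of Mvd, Fdft1, Hsd17b7 and Acly, and in the further lists to those of Vldlr and Elovl7, among others.

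Cyp51, the lanosterol demethylase, was lower by all of its 3 probe sets without passing. The brightest read 10.53 and 10.54 in shVector and 10.39 and 10.26 in shPhf19 (change -0.21 ± 0.07, adjusted p = 0.263), and the others were at -0.25 ± 0.07 and -0.20 ± 0.10. In each of the 3 the groups did not overlap. Nsdhl, the dehydrogenase that acts with Hsd17b7, read 10.59 and 10.58 in shVector and 10.42 and 10.40 in shPhf19. Its change was -0.18 ± 0.06 (adjusted p = 0.277), again with replicates close together and groups apart.

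In the remaining late enzymes the groups overlapped or nearly touched. Sqle, the squalene epoxidase, read 12.03 and 12.20 in shVector and 12.05 and 11.96 in shPhf19 (-0.11 ± 0.07), so that the groups overlapped. Msmo1, the methyl sterol oxidase, was at -0.16 ± 0.09 with the same overlap, and its dim second probe set at -0.42 ± 0.20. Sc5d, a sterol desaturase, read 9.740 and 9.924 in shVector and 9.736 and 9.630 in shPhf19 (-0.15 ± 0.09), so the groups barely separated, and its other probe sets were both at 0.02. Dhcr7, the last reductase, was at -0.06 ± 0.09 with overlap. Tm7sf2, a sterol reductase, was the exception in sign, at 0.11 ± 0.08, with both shPhf19 arrays (9.26 and 9.31) above both controls (9.24 and 9.12).

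**Figure D2:**
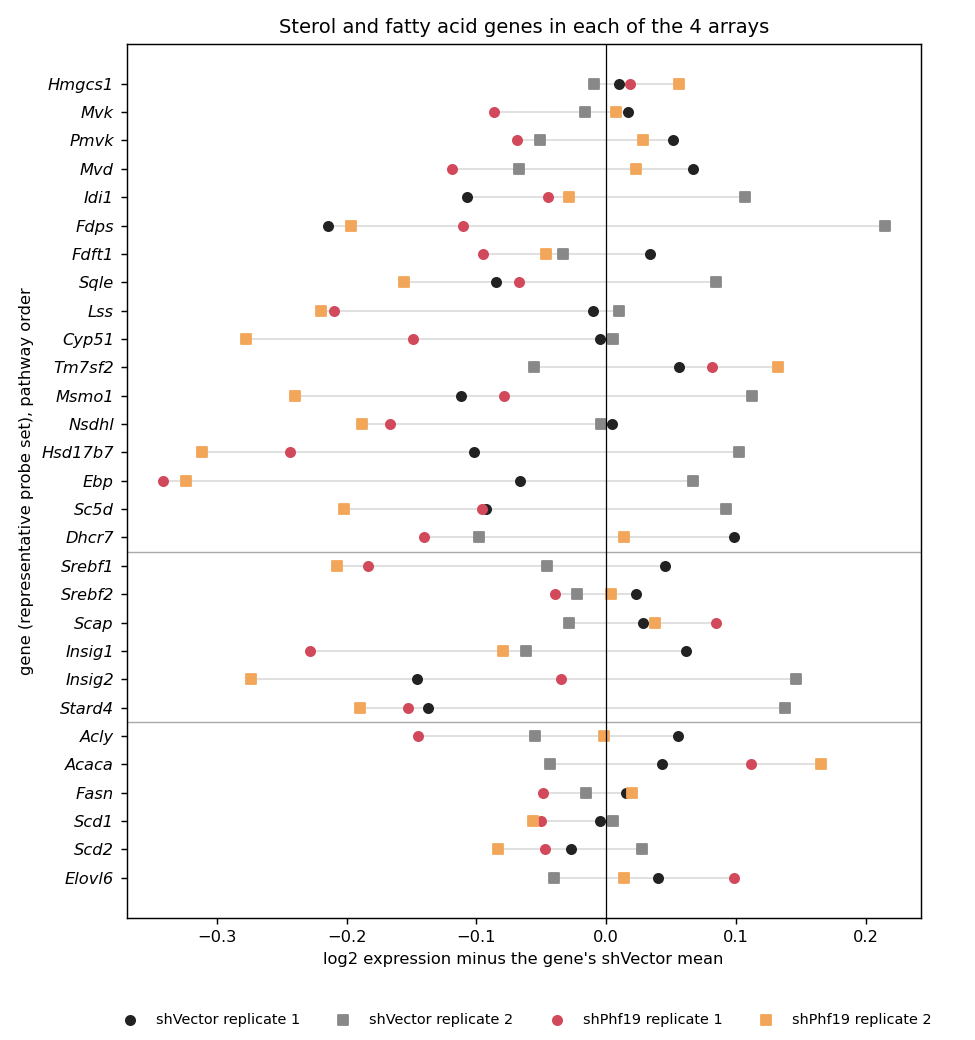
Each gene's log2 value on the 4 arrays minus its shVector mean (x axis), for the representative probe sets in pathway order; circles are replicate 1 and squares replicate 2, grey and black for shVector, red and orange for shPhf19. For Lss, Cyp51, Nsdhl and Ebp the shPhf19 points lie left of both control points, whereas for Fdps, Msmo1 and Insig2 shVector replicate 2 stands to the right of the other 3 arrays.

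Of the control genes, Srebf1 was lower and Srebf2 was not, without a passing test for either. Srebf1 read 10.85 and 10.76 in shVector and 10.62 and 10.60 in shPhf19, with no overlap. Its change was -0.20 ± 0.06 (95% interval -0.35 to -0.05, adjusted p = 0.26). Srebf2, the main factor of the sterol enzymes, read 9.58 and 9.53 against 9.51 and 9.56. Its change was -0.02 ± 0.07, with an interval from -0.18 to 0.15, and the second probe set gave 0.00 ± 0.09. The 2 genes were not tested against each other.

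Insig1, which retains the SREBP and Scap complex and is itself an SREBP target, read 11.62 and 11.50 in shVector and 11.33 and 11.48 in shPhf19. The groups did not overlap, but shVector replicate 2 and shPhf19 replicate 2 were almost equal (change -0.15 ± 0.07, adjusted p = 0.471). Insig2, its paralog, was at -0.15 ± 0.13, with all 3 probe sets below 0 and all 3 overlapping between groups. Scap was at 0.06 ± 0.07. Stard4, a cytosolic carrier of sterol, read 9.020 and 9.295 in shVector and 9.005 and 8.968 in shPhf19 (change -0.17 ± 0.10, adjusted p = 0.589). Only shVector replicate 2 stood out, and the other probe sets of Stard4 were at -0.02 and 0.01.

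By representative probe sets, fatty acid synthesis had the median nearest to 0 of the 3 roles, with a value of -0.03 and 4 of 6 genes below 0. That ranking does not hold with probe sets averaged per gene. Acly, Scd1 and Scd2 were then at -0.13, -0.18 and -0.18, and Fasn, Elovl6 and Acaca at -0.01, 0.03 and 0.10. Fasn, the fatty acid synthase, read 11.63 and 11.60 in shVector and 11.57 and 11.64 in shPhf19, a change of -0.01 ± 0.05. Its interval from -0.15 to 0.12 bounds any difference in array signal closely. Acaca, the acetyl-CoA carboxylase that commits carbon to fatty acids, had the highest change of the 29, at 0.14 ± 0.07 (9.62 and 9.53 in shVector, 9.69 and 9.74 in shPhf19, adjusted p = 0.509). Elovl6, an elongase of saturated chains, was at 0.06 ± 0.06.

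For Acly and the desaturases the reading depended on the probe set. Acly, ATP citrate lyase, which supplies cytosolic acetyl-CoA to both pathways, read 12.88 and 12.77 in shVector and 12.68 and 12.82 in shPhf19 by its brightest probe set (-0.07 ± 0.07, adjusted p = 0.749), with overlap. By the next brightest it read 12.57 and 12.57 against 12.40 and 12.34 (-0.20 ± 0.05, adjusted p = 0.134), with the groups apart. All 6 Acly probe sets were below 0.

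Scd1 and Scd2 encode stearoyl-CoA desaturases. Scd2 read 13.68 and 13.73 in shVector and 13.66 and 13.62 in shPhf19 by its brightest probe set (-0.07 ± 0.04, adjusted p = 0.606). Scd1 was at -0.05 ± 0.05 by its brightest probe set. Dimmer probe sets gave -0.31 ± 0.08 for Scd1 (adjusted p = 0.173) and -0.31 ± 0.09 for Scd2 (adjusted p = 0.228), each with both shPhf19 arrays below both controls. Apart from Ebp, Lss, Cyp51, Srebf1, Insig1, Stard4, Acaca, Scd2 and Acly, genes of the set with values by array, and single probe sets other than the representative ones, were picked out after their values were seen. Of the 20 genes with several probe sets, 10 had every change below 0, 1 (Acaca) had every change above 0 and 9 were mixed, and within a gene the changes differed by at most 0.33.

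The arrays were also compared one by one. ShVector replicate 2 was the highest array for 13 of 29 genes and shVector replicate 1 for 10, against 26.5% and 28.8% of all genes. The median difference of the late enzymes was -0.14 for shPhf19 replicate 1 minus shVector replicate 1 and -0.26 for replicate 2 minus replicate 2, while shVector replicate 2 minus replicate 1 was 0.08. For the early enzymes the corresponding values were -0.10, 0.02 and -0.03. The late enzymes were below 0 in 7, 9, 9 and 8 of 10 genes in the 4 pairings of an shPhf19 array with an shVector array.

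Across the 29 genes, the difference between the shVector arrays correlated with that between the shPhf19 arrays at Pearson's r = -0.709 (replicate 1 minus 2 in both). Genes that were higher in shVector replicate 2 than in replicate 1 thus tended to be lower in shPhf19 replicate 2 than in replicate 1. This is a description across genes that share the same 4 arrays, and genes are not independent replicates. Over all 45037 probe sets the value was -0.197. The 2 values are over unlike sets: all 29 representative probe sets were above the array median on every array, against 21609 of all probe sets. A value over the representative probe sets of all genes was not computed. The log2 excess of 3' over 5' signal of the beta-actin control probe sets, which rises as RNA degrades, stood at 1.16 in shVector replicate 1, 1.03 in shPhf19 replicate 2, 0.922 in shPhf19 replicate 1 and 0.834 in shVector replicate 2. Its part in the result was not tested.

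**Figure D3:**
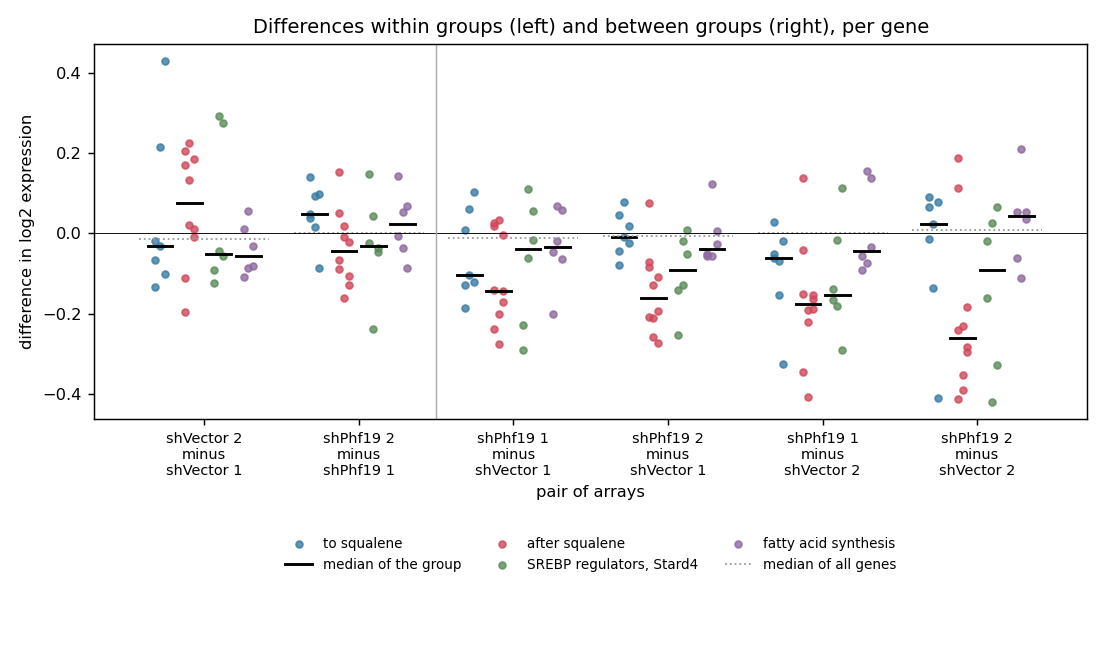
Difference in log2 expression (y axis) between single arrays for the 29 genes, within groups on the left and between groups on the right, coloured by place in the pathway; black bars are medians of each set and dotted lines medians of all genes. The enzymes after squalene have medians from -0.14 to -0.26 in the 4 pairs between groups, and the fatty acid genes have medians from -0.04 to 0.04.

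Other genes of sterol and lipid metabolism, from 4 further lists, were read in the same fit. Of 72 measured genes, 1 rose, 1 fell and 70 did not pass, with a median of -0.07 and 49 below 0. The share called in each direction is near that of all genes (1.15% higher and 0.863% lower), so these counts are no result about the lists. None of 11 other sterol and isoprenoid enzymes passed; Lbr, the lamin B receptor that is also a sterol reductase, was at -0.17 ± 0.05 (adjusted p = 0.187) and Acat1, a mitochondrial thiolase, at -0.25 ± 0.08 (adjusted p = 0.271). Nor did any of 13 genes of SREBP processing and turnover. Erlin2 and Erlin1, which encode endoplasmic reticulum proteins that bind the SREBP complex, were at -0.22 ± 0.07 (adjusted p = 0.246) and -0.19 ± 0.07 (adjusted p = 0.316).

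Among 16 genes of sterol transport and of LXR, the nuclear receptor for oxysterols, Vldlr fell. It encodes the VLDL receptor, which takes up lipoproteins. It read 10.5292 and 10.5030 in shVector and 10.0005 and 10.0609 in shPhf19, a gap far wider than that between replicates. The change was -0.49 ± 0.06, or 1.40-fold, with limma adjusted p = 0.0242. Its other 5 probe sets were between -0.97 and -0.48, and 3 of them also passed. With each array left out in turn the change of the first was -0.52 to -0.46, and without an intensity trend in the fit its adjusted p was 0.0719.

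Among 32 other genes of fatty acid and lipid synthesis, Elovl4, an elongase of very long chain fatty acids, rose 1.48-fold. It read 8.11 and 8.01 in shVector and 8.63 and 8.61 in shPhf19 (change 0.56 ± 0.08, adjusted p = 0.0321), and its second probe set was at 0.28 ± 0.09 (adjusted p = 0.283). With each array left out in turn its change was 0.51 to 0.61, and without an intensity trend its adjusted p was 0.0563. By their representative probe sets none of the other 5 elongases on this list passed. They were picked out after their values were seen. Elovl1, Elovl3 and Elovl5 were at -0.16, -0.19 and -0.10. Elovl7 was at -0.51 ± 0.10 by its representative probe set (adjusted p = 0.084) and fell by 0.56 ± 0.07 by another (adjusted p = 0.025), whereas Elovl2 was at 0.47 ± 0.09 (adjusted p = 0.0767). Mid1ip1, an activator of acetyl-CoA carboxylase, read 10.21 and 10.42 in shVector and 9.85 and 9.84 in shPhf19, a change of -0.47 ± 0.08 that did not pass (adjusted p = 0.0643).

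**Figure D4:**
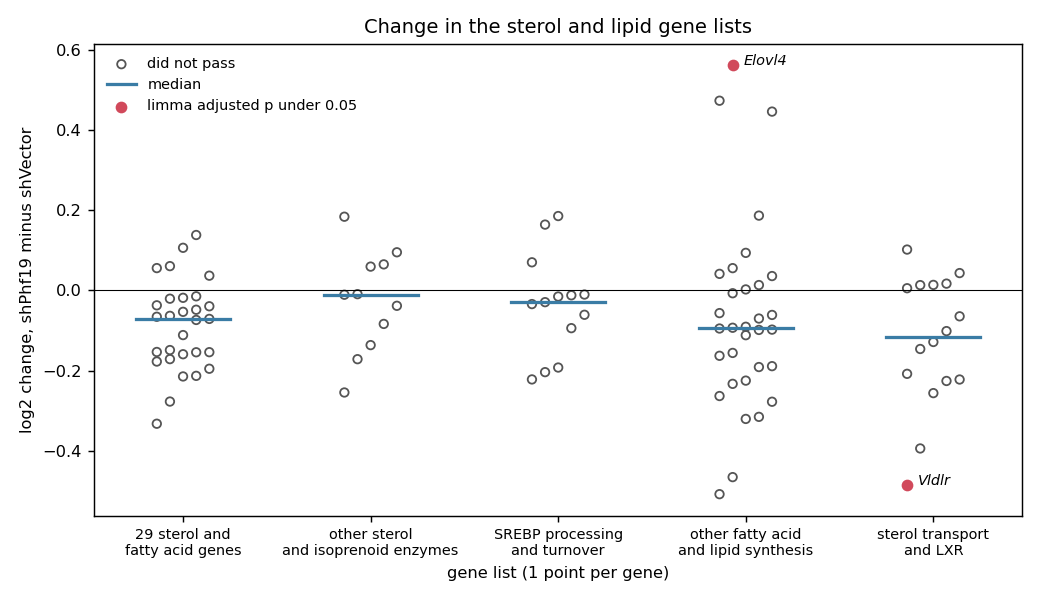
Log2 change (shPhf19 minus shVector, y axis) of the 29 genes and of the 4 further lists, 1 point per gene by its representative probe set; filled points passed the test and blue bars are medians. The 29 genes lie between -0.33 and 0.14, and Vldlr (-0.49) and Elovl4 (0.56) are the only filled points.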

How the data were processed

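RNA of 4 samples was measured on Affymetrix mouse arrays. The authors' deposited table holds 1 log2 value per probe set and array; the scale was read from the values, and the sources used here do not give the software, background correction or probe summary. The array medians nearly coincide (5.75 to 5.76), as they would after normalization between arrays, which no source used here states. Detection calls do not come with the values, and dim ones may be background.

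The 64 control probe sets were left out. The other 45037 were fitted without a filter on level, by limma 3.58.1 under R 4.3.3, with lmFit and a trended eBayes. The two-sided contrast was shPhf19 minus shVector. Benjamini-Hochberg adjustment covered all of these probe sets, at a threshold of 0.05. SE and 95% intervals are limma's moderated ones; SD is over 2 arrays, and the number of arrays limits the precision. The fit was tested on simulated data. GEO's platform annotation lists 34945 probe sets with 1 gene, 932 with several and 9160 with none; each gene is represented by its probe set with the highest mean. The members and lists were chosen with earlier results of these data known. The rule for named genes took members with a passing probe set or with probe sets over 0.5 apart (none), the 3 of each role with the smallest p, and in each further list the passing genes (up to 3 per direction) or, with none, the 2 with the smallest p. Others were picked after their values were seen.

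The groups share replicate numbers, which no label ties to a day or batch. Deviations of same-numbered arrays correlated at -0.197 over probe sets, and no replicate term was fitted. Alternatives were quantile normalization, median centring, no intensity trend, leaving out the lowest 25% or 50% of probe sets, averaging probe sets per gene, blocks by replicate number, and leaving out each array.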

Additional observations from a re-analysis of the deposited data

How the results depend on the processing

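The replicate block and each fit without 1 array called 0 of all 45037 probe sets, so a count of 0 under them says nothing about the set. Among the other alternatives, the count of passing genes in the set was 0 except for 2. It was 1 lower (Ebp, 1 probe set) with quantile normalization and 1 lower (Ebp) with probe sets averaged per gene. Averaging leaves the values of Ebp as they are, since it has 1 probe set. No alternative called a gene of the set higher. Genes of the set below 0 numbered 24 under every alternative that kept all arrays and did not average probe sets. Among these, only quantile normalization and median centring alter the changes themselves. The blocks, the fit without a trend and the filters on level leave each change as it is, so their count could not differ. The count was 25 with averaging, and 18 to 24 without 1 array, when the median ran from -0.093 to -0.048. In the further lists the count was 2 lower with quantile normalization, 2 higher and 2 lower without the lowest 50% of probe sets, 2 higher and 4 lower with averaged probe sets, and 0 in each direction without an intensity trend, with the replicate block, and without any 1 array (0 to 0). At an unadjusted p under 0.05 the replicate block had 3890 probe sets and the fits without 1 array 2539 to 6942, against 5708. The crossed block, chosen after seeing the data, called 596 and 0 in the set. Genes of the set at that level numbered 12 with the crossed block and 4 without an intensity trend, against 6. The cause of these differences was not tested.

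Without 1 array, some values near 0 changed sign: Mvk from -0.086 to 0.0074, Pmvk from -0.072 to 0.031, Mvd from -0.12 to 0.023, Idi1 from -0.14 to 0.07, Fdps from -0.37 to 0.061, Dhcr7 from -0.16 to 0.035, Srebf2 from -0.041 to 0.0041, Fasn from -0.049 to 0.020, the second Phf19 probe set from -0.16 to 0.052, the dimmest of Hsd17b7 from -0.11 to 0.016, and the dimmer ones of Lss from -0.093 to 0.018 and from -0.019 to 0.083. Array number limits every value here: a fit without an array has 1 array in that group, whose spread is taken from the other.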
